A study of Mus musculus with 8 samples.

Results

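The RNA of 9 genes of the insulin-like growth factor (IGF) system was followed in the left ventricle of mice under pressure overload, with and without Lin28a in heart muscle. The 9 genes are the ligands Igf1 and Igf2, the receptor Igf2r, the binding proteins Igfbp3, Igfbp4, Igfbp5, Igfbp6 and Igfbp7, and the protease Htra1. They were taken by symbol from the 13439 genes listed, and all 9 were among the 13120 genes that reached 1 CPM (a gene's reads scaled by the library total) in 2 or more libraries and were tested. Polyadenylated RNA gave 8 libraries, split evenly over 4 groups. Floxed sham and floxed TAC hearts came from Lin28afl/fl mice, in which the Lin28a gene is flanked by loxP sites and, per the labels, intact. The cKO sham and cKO TAC hearts came from littermates with a cardiac-specific knockout of Lin28a (Lin28aCko). No source used here names the promoter that drives Cre, or the age or sex of the mice. TAC is transverse aortic constriction, a band on the aortic arch that raises the load on the ventricle. TAC hearts are from day 5 after surgery, and the labels give no day for sham hearts. The libraries are called duplicates and no label says that they came from different animals. Only the cKO sham pair can be told to be different animals, as its libraries differ in the sex-linked transcripts Xist and Ddx3y (values below). A p-value therefore covers only the spread between 2 libraries of a group, which may be technical in the other groups. Lin28a itself was not analysed here, so the genotype rests on the labels.

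IGF1 and IGF2 are secreted peptides that signal through the receptor tyrosine kinase IGF1R to PI3K, Akt and mTOR, a route known to drive growth of heart muscle cells. The receptor encoded by Igf2r carries mannose 6-phosphate tagged enzymes to lysosomes and takes up IGF2 for degradation. The secreted IGF-binding proteins hold the ligands away from the receptor or deliver them to it, and proteases such as HTRA1 cut binding proteins and free the ligand. LIN28A is an RNA-binding protein that blocks the maturation of let-7 microRNAs, and let-7 is known to repress several genes of insulin and IGF signalling in other tissues.

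The seed that links let-7 to this system is shown first, because it decides which transcripts hold a match. Mature sequences are from RefSeq, 5′ to 3′, with the seed (bases 2 to 8) in capitals. All 8 mouse let-7 microRNAs in the table share the seed GAGGUAG, and a pair is enough to show how they differ outside it.
mmu-let-7a-5p: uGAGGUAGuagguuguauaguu
mmu-let-7g-5p: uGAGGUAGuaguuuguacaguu
The motif CTACCTC, which pairs with that seed, was searched on the mRNA strand of the longest annotated 3′ UTR of each gene (GENCODE, GRCm38, the same assembly as mm10). Among the members that held it were Igf2r and Igfbp5, with 1 match each. Of the 12282 listed genes with an annotated 3′ UTR, 1311 (10.7%) held it. The matches of these members lie in exonic 3′ UTR at chr17:12683037-12683043 (minus strand) and chr1:72859680-72859686 (minus strand). They are printed with their flanks, the seed match in capitals.
Igf2r: cacctgctccgtgccCTACCTCatctctgt
Igfbp5: cttccccaggtcagcCTACCTCccccaaac
The Igf2r match is followed by an A, which extends the pairing known from let-7 sites, and the Igfbp5 match is not. A long UTR holds the motif more often. Of UTRs similar in length to that of Igfbp5, 24.3% held the motif, against 9.66% for the length of the Igf2r UTR. Among the other genes of the pathway, 18 of 92 held a match, including the receptor Igf1r with 2 and the IGF2 mRNA-binding protein Igf2bp2 with 1. Of UTRs similar in length to those of Igf1r and Igf2bp2, 38.9% and 12.1% held the motif.
Igf1r, first match: ttttcaaacatttatCTACCTCactcttgt
Igf1r, second match: tttgccagagttcatCTACCTCtgggattt
Igf2bp2: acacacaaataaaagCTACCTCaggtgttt
A match is a description of these letters, and let-7 levels were not analysed here.

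The libraries held between 10315902 and 21871570 reads, and the deposited CPM values were whole multiples of 1 read. Heart muscle markers were abundant in all of them, with 10 cardiomyocyte genes summing to between 36947 and 74614 CPM. Atrial light chain Myl7 was at 133, 65.0 and 66.2 CPM in floxed sham 2, cKO sham 2 and cKO TAC 2, and at 6.16 CPM or less in the other 5 libraries. One library, cKO sham 2, also had Xist at 44.3 CPM with Ddx3y at 0. In the other 7, Xist was at 0.173 CPM or less and Ddx3y at 32.3 CPM or more. Sex thus differed between the libraries of the cKO sham group, the reference for TAC in cKO hearts. The counts below were therefore repeated without the 3 libraries with atrial transcripts, and with each library left out in turn. In bulk tissue, fewer cells of a type and less RNA per cell cannot be told apart.

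Levels can be compared between genes only per length. In CPM per kilobase of annotated exon, averaged over the 8 libraries, Igfbp7 was the most abundant of the 9 at 245 ± 121 (SD). Htra1 at 40.5, Igfbp5 at 35.2, Igfbp4 at 34.0 and Igf2r at 26.0 formed a middle tier whose neighbours overlapped in range. Igfbp6 at 14.1, Igfbp3 at 13.5, Igf2 at 7.13 and Igf1 at 4.08 followed, again with overlapping neighbours. Igfbp7 exceeded Htra1, and Igf2r exceeded Igfbp6, in all 8 libraries with no overlap of ranges. On these means the ligand RNAs were the least abundant of the set per kilobase, and each rested on at least 224 reads in every library. Igfbp3 exceeded Igf2 in 7 of the 8 libraries. The Igf2 level also depends on how reads in its shared exons were counted, as given below.

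**Figure D1:**
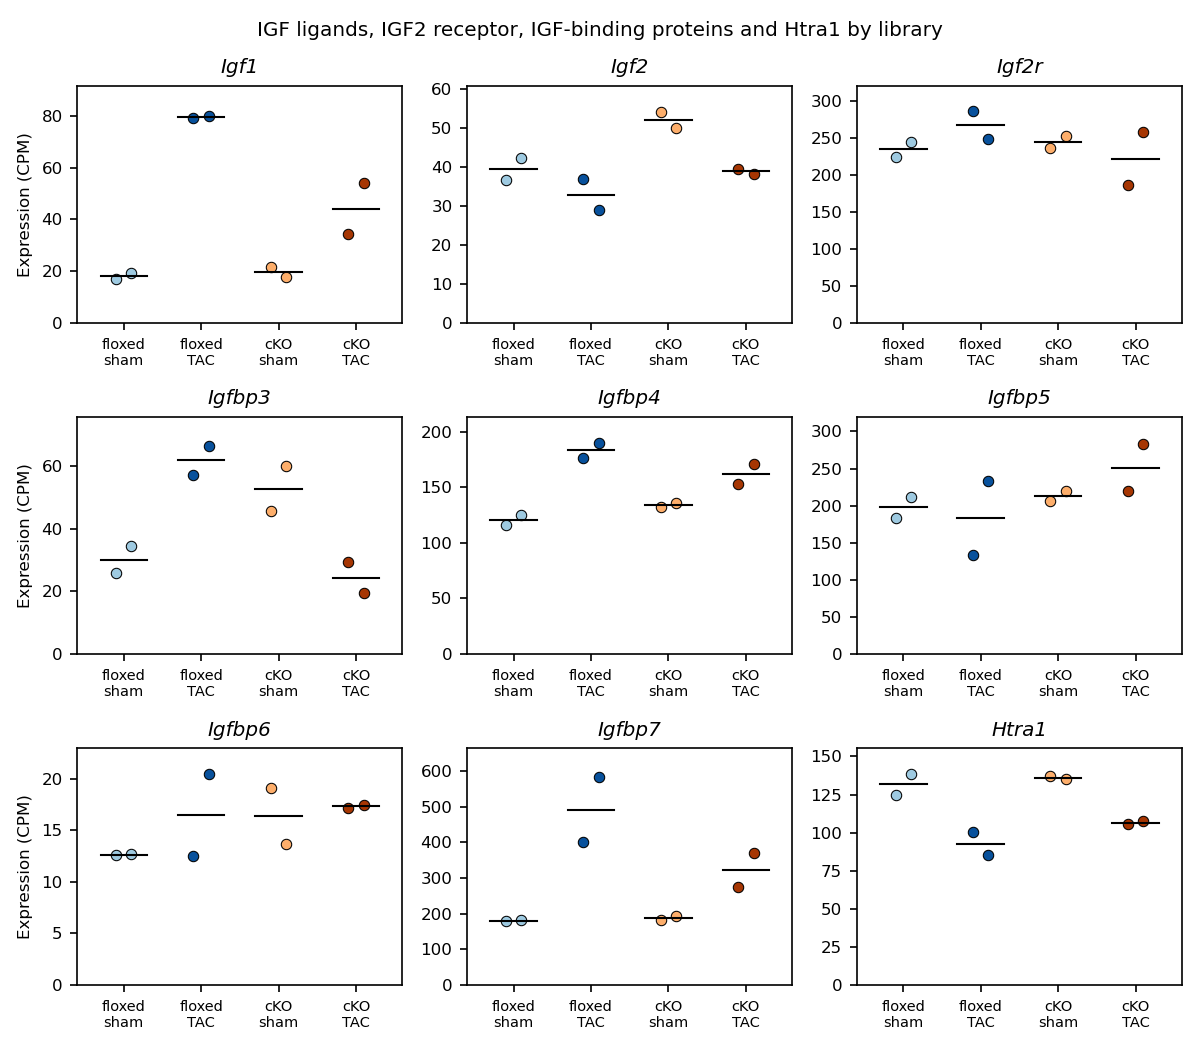
Expression of the 9 genes in CPM, 1 panel per gene with its own axis from 0. Points are single libraries, 2 per group, and bars are group means. Igf1 and Igfbp7 are highest in floxed TAC hearts, and Igfbp3 is high in floxed TAC and cKO sham hearts, with its lowest mean in cKO TAC hearts.

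Igf1 (chr10:87858265-87937042, plus strand) encodes the ligand with the highest affinity for IGF1R. It was at 17.0 and 19.2 CPM in floxed sham, 79.1 and 80.0 in floxed TAC, 21.7 and 17.6 in cKO sham, and 34.3 and 54.0 in cKO TAC. The floxed TAC pair lay above every other library, and the cKO TAC pair lay between them and all sham hearts, with a wide gap between its own libraries. TAC raised Igf1 4.4-fold in floxed hearts, by 2.08 ± 0.20 (SE) on the log2(CPM + 1) scale (limma, Benjamini-Hochberg adjusted p = 7e-05). In cKO hearts the rise was 2.25-fold, by 1.10 ± 0.20 (limma adjusted p = 0.0269). The TAC response was smaller in cKO hearts by an interaction of -0.98 ± 0.29 (limma adjusted p = 0.0498), and cKO TAC hearts were below floxed TAC hearts, at -0.87 ± 0.20 (limma adjusted p = 0.0137). The interaction stood at the edge of the threshold and passed it in 3 of 15 alternatives, with adjusted p up to 0.169. It was lost, for example, on edgeR (0.0741), and without any 1 of the libraries other than cKO TAC 2. The rise in cKO hearts was kept in 7 of 16 alternatives. It was lost without any 1 library other than cKO TAC 1 (adjusted p up to 0.137, with values of 0.78 to 1.24) and without the 3 libraries with atrial transcripts (0.63, adjusted p = 0.209). The genotype difference with TAC was lost without floxed TAC 1, floxed TAC 2 or cKO TAC 1 (adjusted p up to 0.0777). The rise in floxed hearts was kept in all 16.

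Igf2 (chr7:142650766-142666816, minus strand) encodes the fetal growth ligand and is expressed from the paternal allele. It was at 36.7 and 42.2 CPM in floxed sham, 37.0 and 28.8 in floxed TAC, 54.0 and 50.0 in cKO sham, and 39.6 and 38.2 in cKO TAC. The cKO sham pair was the highest and did not overlap any other group. No comparison of Igf2 passed the threshold. TAC against sham was at -0.26 ± 0.15 in floxed hearts (limma adjusted p = 0.186) and at -0.41 ± 0.15 in cKO hearts (limma adjusted p = 0.205). In sham hearts cKO against floxed was at 0.39 ± 0.15 (limma adjusted p = 0.599). Of the Igf2 exon bases, 62.8% are shared with the same-strand gene model Gm49394 and 1.71% with the opposite-strand Igf2os, so the counting could have set aside or misassigned Igf2 reads.

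Both ligands together give a ratio within each library that does not depend on the library total. The Igf1 to Igf2 ratio of CPM was 0.464 and 0.455 in floxed sham and 0.402 and 0.351 in cKO sham, so Igf2 reads outnumbered Igf1 reads in all 4 sham hearts. It was 2.14 and 2.77 in floxed TAC hearts, where Igf1 reads outnumbered Igf2 reads. In cKO TAC hearts it was 0.865 and 1.41, on either side of 1. These are ratios of reads, and Igf1 has 9904 exon bases against 5723 for Igf2. In CPM per kilobase, the means of Igf1 and Igf2 were 4.46 and 6.8 in cKO TAC hearts. In floxed TAC hearts they were 8.03 and 5.75.

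**Figure D2:**
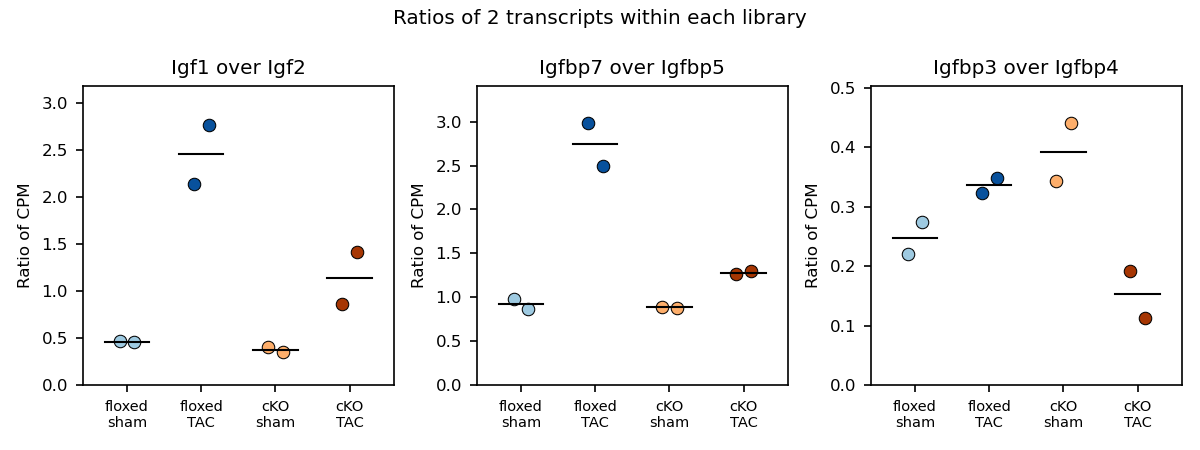
Ratios of the CPM of 2 transcripts within each library, 1 point per library and bars at group means. The Igf1 to Igf2 ratio is above 2 only in floxed TAC hearts, the Igfbp7 to Igfbp5 ratio is 2.99 and 2.50 there, and the Igfbp3 to Igfbp4 ratio is lowest in cKO TAC hearts at 0.192 and 0.113.

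Igf2r (chr17:12682406-12769664, minus strand) varied little. It was at 225 and 244 CPM in floxed sham, 286 and 248 in floxed TAC, 237 and 252 in cKO sham, and 186 and 257 in cKO TAC. The cKO TAC libraries were the lowest and the second highest of the 8, so this group spanned most of the range. No comparison passed the threshold, the largest being the interaction at -0.34 ± 0.22 (limma adjusted p = 0.314). Without cKO TAC 2, the interaction was -0.57 (adjusted p = 0.0411) and cKO against floxed in TAC hearts -0.51 (adjusted p = 0.0190).

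Igfbp3 (chr11:7206086-7213923, minus strand) encodes the main IGF carrier of the blood, which is also made in tissues. It was at 25.8 and 34.4 CPM in floxed sham, 57.1 and 66.3 in floxed TAC, 45.6 and 59.9 in cKO sham, and 29.35 and 19.4 in cKO TAC. TAC and sham hearts did not overlap in either genotype, and their order was opposite: TAC hearts were higher in floxed mice and lower in cKO mice. TAC raised Igfbp3 2.05-fold in floxed hearts, by 1.02 ± 0.22 on the log2 scale (limma adjusted p = 0.00462). In cKO hearts Igfbp3 fell by 53.8% with TAC, at -1.10 ± 0.22 (limma adjusted p = 0.0356). The interaction was -2.12 ± 0.31 (limma adjusted p = 0.00583), and only 0.854% of the genes tested had a more negative one. The interaction passed the threshold in all 15 alternatives that could be run, with adjusted p up to 0.0384.

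The genotype difference in Igfbp3 had opposite signs in sham and TAC hearts. With TAC, the cKO mean was 0.395 times the floxed mean, at -1.33 ± 0.22 (limma adjusted p = 0.00364), and this passed in all 16 alternatives. In sham hearts the cKO mean was 1.75-fold the floxed mean, at 0.79 ± 0.22, and this did not pass (limma adjusted p = 0.468). The fall in cKO hearts is measured from those same cKO sham libraries. It was lost without any 1 library other than cKO TAC 1. It was -0.90 without cKO sham 2 (adjusted p = 0.166), -0.81 without cKO TAC 2 (adjusted p = 0.127) and -0.62 without the 3 libraries with atrial transcripts (adjusted p = 0.247).

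Igfbp4 (chr11:99041244-99054392, plus strand) encodes a binding protein that restrains IGF action until proteases cut it. It was at 117 and 125 CPM in floxed sham, 177 and 190 in floxed TAC, 132 and 136 in cKO sham, and 153 and 171 in cKO TAC. TAC hearts were above sham hearts with no overlap in both genotypes. The rise passed in floxed hearts at 0.60 ± 0.11 (limma adjusted p = 0.00163), where the mean was 51.8% higher. In cKO hearts it was 0.27 ± 0.11 (limma adjusted p = 0.246). The difference between these responses, -0.33 ± 0.15, did not pass (limma adjusted p = 0.166).

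Igfbp5 (chr1:72857932-72874884, minus strand) encodes a binding protein that sticks to extracellular matrix. It was at 184 and 211 CPM in floxed sham, 134 and 234 in floxed TAC, 206 and 220 in cKO sham, and 219 and 283 in cKO TAC. The floxed TAC libraries were the lowest and the second highest of the 8, and no comparison passed by limma. DESeq2 called cKO against floxed in TAC hearts (0.55, adjusted p = 0.0437). Without floxed TAC 2, TAC in floxed hearts was at -0.56 (adjusted p = 0.0414) and cKO against floxed in TAC hearts at 0.89 (adjusted p = 0.0202). Without floxed TAC 1, TAC in floxed hearts was at 0.25, so the direction depends on which library is kept.

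Igfbp6 (chr15:102144362-102149511, plus strand) encodes a binding protein that prefers IGF2. It was the least abundant of the binding proteins in CPM, at 12.6 and 12.7 in floxed sham, 12.5 and 20.5 in floxed TAC, 19.1 and 13.7 in cKO sham, and 17.2 and 17.5 in cKO TAC. Its floxed TAC pair spanned the full range of the 8 libraries, and no comparison passed in any alternative run.

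Igfbp7 (chr5:77349240-77408041, minus strand) encodes a secreted protein with weak IGF binding that is known from blood vessels and fibroblasts. It was at 180 and 182 CPM in floxed sham, 400 and 584 in floxed TAC, 183 and 194 in cKO sham, and 276 and 369 in cKO TAC. All 4 sham hearts lay within a narrow band, all 4 TAC hearts above it, and the cKO TAC pair below the floxed TAC pair. TAC raised Igfbp7 2.72-fold in floxed hearts, by 1.41 ± 0.18 (limma adjusted p = 0.000283). In cKO hearts the mean was 1.71-fold higher, at 0.76 ± 0.18, which did not pass in the fit reported here (limma adjusted p = 0.0673) and passed in 5 of 16 alternatives, including DESeq2 (adjusted p = 0.00192). With TAC, cKO hearts were lower at -0.60 ± 0.18 (limma adjusted p = 0.0406). That call was kept in 7 of 16 alternatives and was lost on edgeR (0.0637) and without either sham library of either genotype, floxed TAC 2 or cKO TAC 1. The interaction of -0.66 ± 0.26 did not pass (limma adjusted p = 0.117), except without cKO TAC 2 (-0.87, adjusted p = 0.0375). Of its exon bases, 7.03% overlap Polr2b on the other strand.

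The 5 binding proteins can also be read as shares of their summed CPM within a library. Igfbp5 and Igfbp7 held similar shares of the reads in sham hearts. Igfbp7 was at 34.6% and 32.2% in floxed sham and at 31.2% and 31.1% in cKO sham. Its exons are shorter, and per kilobase its floxed sham mean was 149 CPM, against 32.9 for Igfbp5. In floxed TAC hearts Igfbp7 made up 51.3% and 53.3%, and Igfbp5 17.1% and 21.3%. In cKO TAC hearts Igfbp7 made up 39.7% and 42.9% and Igfbp5 31.6% and 32.9%. The share of Igfbp3 was 7.78% and 9.61% in cKO sham and 4.22% and 2.26% in cKO TAC, and 4.98% to 7.32% in the 4 floxed libraries. The shares are not independent, since they sum to 100% in each library.

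Htra1 (chr7:130936111-130985660, plus strand) encodes a secreted serine protease. It was at 124 and 139 CPM in floxed sham, 100 and 85.2 in floxed TAC, 137 and 135 in cKO sham, and 106 and 107 in cKO TAC. Every TAC heart was below every sham heart, in both genotypes. With TAC, Htra1 fell by 29.6% in floxed hearts, at -0.50 ± 0.12 (limma adjusted p = 0.00612). That call was lost without floxed sham 2 (adjusted p = 0.0666), without floxed TAC 2 (0.0532) and without the 3 libraries with atrial transcripts (0.0847), with values of -0.39 to -0.43. In cKO hearts the difference was -0.35 ± 0.12 (limma adjusted p = 0.167), and the interaction was 0.15 ± 0.16 (limma adjusted p = 0.557).

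**Figure D3:**
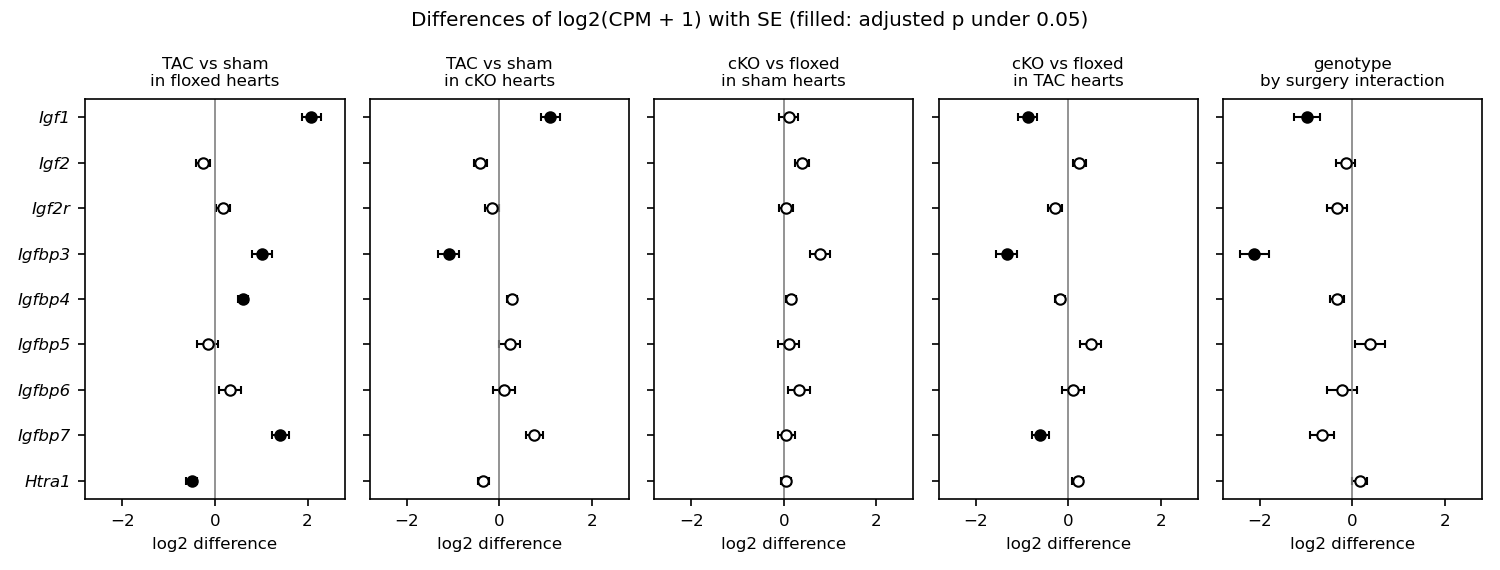
Differences of log2(CPM + 1) for the 9 genes in the 5 comparisons, 1 panel each. Points are fitted differences, bars are ± 1 SE, and filled points passed an adjusted p of 0.05. The Igfbp3 point is at 1.02 for TAC in floxed hearts, at -1.10 for TAC in cKO hearts and at -2.12 for the interaction.

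Counted over the set, TAC in floxed hearts raised 4 of the 9 members, Igf1, Igfbp3, Igfbp4 and Igfbp7, and lowered 1, Htra1. Over all genes tested, 27.9% were higher and 14.5% lower in that comparison, and the median difference was 0.32 for the members and 0.14 for all genes. Without the 3 libraries with atrial transcripts 4 members passed, since Htra1 did not. In cKO hearts TAC raised 1 member, Igf1, and lowered 1, Igfbp3, where 2.09% of all genes were higher and 0.442% lower. Both calls are lost without floxed sham 1, floxed sham 2, cKO sham 1, cKO sham 2 or cKO TAC 2, and without the 3 libraries with atrial transcripts. Without floxed TAC 1 or floxed TAC 2, Igfbp7 was the 1 member that passed, and without cKO TAC 1 there were 3, among them Igfbp7. In sham hearts no member differed between genotypes by limma, edgeR or DESeq2, and 2 members, Igf2 and Igfbp3, had an unadjusted p under 0.05. There 0.0534% of all genes, 7 of 13120, passed in either direction.

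With TAC, 3 members were lower in cKO than in floxed hearts, Igf1, Igfbp3 and Igfbp7. Of all genes tested, 16.5% were lower and 8.39% higher, and the median was -0.18 for the members and -0.10 for all genes. With 1 library left out, these differences ranged from -1.19 to -0.55 for Igf1, -1.61 to -1.04 for Igfbp3 and -0.87 to -0.32 for Igfbp7. The calls of Igf1 and Igfbp7 depended on which library was left out. Without floxed TAC 2, Igfbp5 was higher in cKO than in floxed TAC hearts, at 0.89. For the interaction 2 members passed, Igf1 and Igfbp3, both negative, where 9.18% of all genes were negative and 4.93% positive. That number was 1, Igfbp3 alone, without any 1 library other than cKO TAC 2, and 4 without cKO TAC 2. Leaving out the 3 libraries with atrial transcripts kept it at 2. The TAC comparisons and the genotype comparisons share libraries, so their counts are not independent of each other. When libraries were rescaled by their median ratio (RLE), the median of all genes in floxed TAC against sham moved from 0.14 to 0.0019. The split of all calls moved from 3655 higher and 1907 lower to 2975 higher and 2604 lower. The member calls in that comparison kept their directions under that scaling.

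The macrophage and fibroblast marker sums were higher in TAC than in sham hearts of both genotypes, as were Igf1 and Igfbp7. The cardiomyocyte sum of TAC hearts lay below that of sham hearts only in floxed mice. The summed CPM of the 10 cardiomyocyte markers was 61961 to 74614 in floxed sham, 36947 to 37923 in floxed TAC, 52119 to 57858 in cKO sham and 48847 to 67062 in cKO TAC. With TAC in floxed hearts 5 of the 10 were lower (3 without floxed sham 1) and 2 higher (1 without floxed sham 2 or floxed TAC 2). In TAC hearts 6 were higher in cKO than in floxed mice (3 without cKO TAC 1), and 1 was lower. The summed CPM of 11 macrophage markers was 421 to 429 in floxed sham, 2145 to 2430 in floxed TAC, 348 to 456 in cKO sham and 756 to 1053 in cKO TAC. All 11 were higher with TAC in floxed hearts, 8 in cKO hearts, and all 11 were lower in cKO than in floxed TAC hearts. The 8 became 5 when either floxed TAC library was dropped, 2 when cKO sham 2 and 4 when cKO TAC 2 was dropped, and 0 when all 3 libraries with atrial transcripts were. The sum of 10 fibroblast markers was 3407 to 3419, 9892 to 13151, 3365 to 3895 and 4370 to 6148 in the same order of groups. With TAC in floxed hearts 6 of 10 were higher and 2 lower (1 lower when either floxed sham library or floxed TAC 1 is dropped). In cKO hearts 3 were higher with TAC (1 without cKO sham 1). In TAC hearts 4 were lower and 1 higher in cKO than in floxed mice. Of all genes tested, TAC raised 27.9% and lowered 14.5% in floxed hearts, and raised 2.09% and lowered 0.442% in cKO hearts. In TAC hearts 16.5% of all genes were lower and 8.39% higher in cKO mice. Of 9 endothelial markers 0 passed by limma in any of the 5 comparisons, and their sum stayed between 1120 and 1707 CPM over the 8 libraries. At an unadjusted p under 0.05 there were 4 with TAC in cKO hearts and 1 for the interaction, and edgeR and DESeq2 each called 1, with TAC in floxed hearts. Without cKO TAC 2, limma called 4 as lower with TAC in cKO hearts. The macrophage and fibroblast sums were higher in cKO TAC than in cKO sham hearts, and Igfbp3 was lower. No marker of these 4 lists was at 0 in any library. The part of these cells in the member values was not tested.

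**Figure D4:**
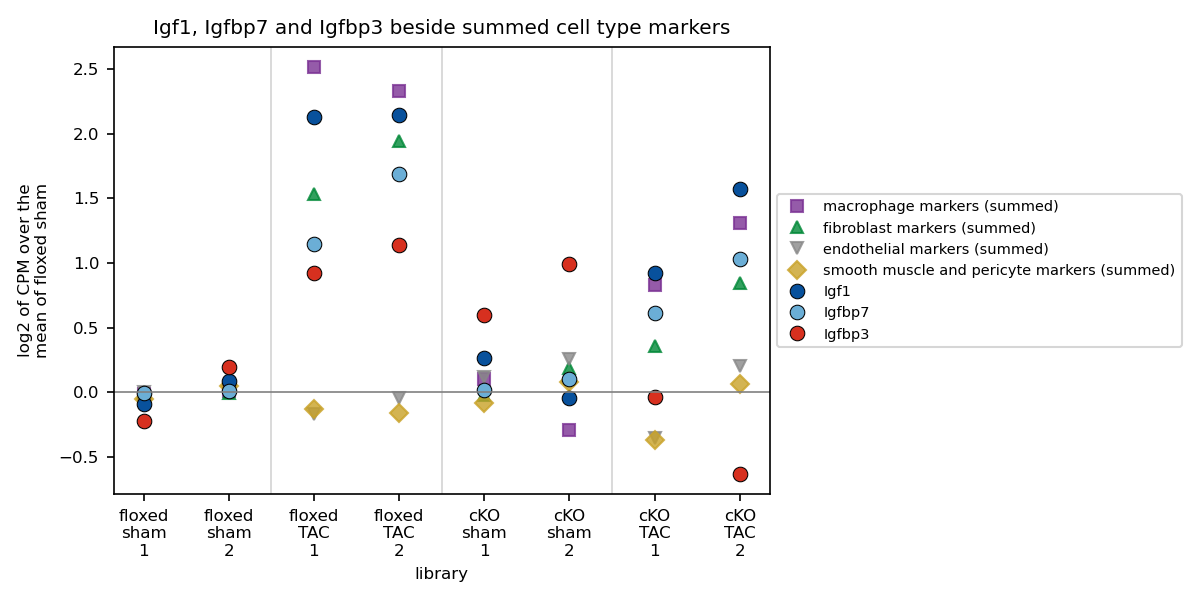
Igf1, Igfbp7 and Igfbp3 (circles) and the summed markers of cell types (other symbols), each as log2 of its CPM over its mean in floxed sham hearts, for the 8 libraries in order of group. Igf1, Igfbp7 and the macrophage and fibroblast sums are highest in the floxed TAC libraries, while Igfbp3 lies below 0 in both cKO TAC libraries and above 0 in both cKO sham libraries.

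The genes whose profile over the 8 libraries was most like that of a member were sought among 10285 genes with a mean of at least 5 CPM, by Pearson's r of log2(CPM + 1). The values describe 8 libraries that share their groups, and a high r follows from a common difference between groups. For Igf1 these included Vcan and Mtmr11, each at 0.996. Vcan, a matrix proteoglycan, had means of 17.5 and 139 CPM in floxed sham and TAC, and of 20.1 and 52.5 CPM in cKO sham and TAC. For Igfbp7 they were Maf (0.996), Serpinf1 (0.995) and the fibrillar collagen Col3a1 (0.988). For Igfbp3 they were Cdk5rap3 (0.981), Fcgrt (0.961) and Utp6 (0.937), all with a much smaller range, as Cdk5rap3 had means of 25.9, 29.5, 28.5 and 25.5 CPM. For Igfbp4 they included Phlda3 (0.982) and Mtmr11 (0.981). For Htra1 they were Hhatl (0.994), Paqr9 (0.985) and Ybx1 (0.983), each lower in both TAC groups than in both sham groups. The first for the other members were Cops6 for Igf2 (0.983), Snx19 for Igf2r (0.968), Adam11 for Igfbp5 (0.976) and Sgsm3 for Igfbp6 (0.925).

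The promoters of Igfbp3 and Igfbp7 are shown because both genes rose with TAC in floxed hearts. In cKO hearts Igfbp3 was lower with TAC, and the higher mean of Igfbp7 did not pass (limma adjusted p = 0.0673). A link between these sequences and the responses was not tested. Sequences are the 250 bases before the RefSeq start, on the gene's strand (GRCm38.p6), with motif matches in capitals. The Igfbp3 window is chr11:7213924-7214173 (minus strand) and the Igfbp7 window is chr5:77408046-77408295 (minus strand).
Igfbp3: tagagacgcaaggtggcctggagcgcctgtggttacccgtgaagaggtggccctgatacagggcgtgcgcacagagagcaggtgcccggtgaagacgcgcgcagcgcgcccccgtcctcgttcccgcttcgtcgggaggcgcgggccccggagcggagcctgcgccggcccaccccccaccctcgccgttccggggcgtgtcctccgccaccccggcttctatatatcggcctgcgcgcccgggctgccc
Igfbp7: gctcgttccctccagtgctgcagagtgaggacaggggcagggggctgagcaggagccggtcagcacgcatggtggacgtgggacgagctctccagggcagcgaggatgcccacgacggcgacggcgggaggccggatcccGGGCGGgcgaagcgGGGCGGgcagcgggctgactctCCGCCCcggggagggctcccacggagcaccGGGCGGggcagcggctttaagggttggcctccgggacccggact
A set of 6 short motifs, each named below, was searched on both strands, and matches that touch or overlap were each counted. The Igfbp7 window holds 4 matches to GGGCGG, a GC box that 32.7% of 32851 mouse promoters hold in windows of the same length. The Igfbp3 window holds none of the 6 motifs. Over the 12 start sites of the 9 members, 5 windows held this GC box. The motif CCAAT was in 4 of them and in 33.8% of all promoters. The motif CATTCC, the core bound by TEAD factors, was in 4 of them, 3 of which are starts of Igf2 and 1 of Igfbp5, and in 12.6% of all. The motif TATAAA was in 2 and in 12.4% of all. The motif CACGTG, an E-box, was in 1 and in 6.02% of all. The motif TGACTCA, the AP-1 site, was in 0 and in 4.46% of all. These windows are a description of letters and not of binding.

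The other genes of the pathway were taken from 8 lists of 115 genes, of which 98 were tested. TAC in floxed hearts raised 41 and lowered 15 of them, or 41.8% and 15.3%, against 27.9% and 14.5% of all genes tested. With RLE scaling the split was 38 higher and 23 lower. By list, the shares higher and lower were 38.5% and 7.69% for receptors and adaptors, and 14.3% and 57.1% for the growth hormone axis. They were 58.8% and 11.8% for proteases and their inhibitors, and 66.7% and 0% for other IGFBP superfamily and carrier genes. Sorting genes had 45.5% and 9.09%, partners of Igf2 40.0% and 0%, and matrix partners 83.3% and 8.33%. In cKO hearts TAC raised 6, or 6.12%, against 2.09% of all genes. It lowered 0 by limma and edgeR and 2 by DESeq2, with 8 lower at an unadjusted p under 0.05. Those raised were 5.88% of the proteases and inhibitors, 33.3% of the IGFBP superfamily and carrier genes and 16.7% of the matrix partners. The 6 became 3 without cKO sham 2, 11 without cKO TAC 1, and 2 higher and 1 lower without the 3 libraries with atrial transcripts. In TAC hearts 8 (8.16%) were higher and 32 (32.7%) lower in cKO than in floxed mice, against 8.39% and 16.5% of all genes. These 40 calls became 25 without floxed TAC 1, 24 without floxed TAC 2 and 22 without cKO TAC 1. Of the interactions 7 (7.14%) were positive and 23 (23.5%) negative, against 4.93% and 9.18% of all genes. They were positive for 16.7% of the PI3K, Akt and mTOR genes and negative for 75.0% of the matrix partners. Leaving out 1 floxed sham library turned the 30 into 5 (replicate 1) or 13 (replicate 2), and leaving out 1 floxed TAC library into 11 or 9. In sham hearts 1 gene differed, the matricellular factor Ctgf. It was at 50.1 ± 2.23 CPM (SD, n = 2) in floxed sham and 130 ± 24.4 in cKO sham, a call that was lost without any 1 of floxed sham 1, floxed sham 2, floxed TAC 1, floxed TAC 2 or cKO sham 2.

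Among the 13 receptors and adaptors tested, 5 rose (3 without floxed sham 1) and 1 fell (2 without floxed TAC 1 or floxed TAC 2) with TAC in floxed hearts. In cKO hearts 0 passed by limma and edgeR and 1 by DESeq2, with 2 at an unadjusted p under 0.05. Igf1r, the receptor that transmits both ligands, was at a mean of 26.6 CPM in floxed sham, 48.6 in floxed TAC, 31.0 in cKO sham and 30.3 in cKO TAC. Its rise in floxed hearts was 0.85 ± 0.21 (limma adjusted p = 0.0105), lost without floxed sham 1 or floxed TAC 2 (adjusted p up to 0.0697). Its interaction, -0.84 ± 0.30, did not pass (limma adjusted p = 0.0916), except without cKO sham 1 (adjusted p = 0.0230). With TAC it was lower in cKO hearts, at -0.67 ± 0.21 (limma adjusted p = 0.0467), a call kept in 8 of 16 alternatives and lost without either floxed sham or floxed TAC library or cKO TAC 1. Insr, the insulin receptor, was at 162, 117, 174 and 169 CPM in the same order of groups, and its difference with TAC in floxed hearts was -0.50 ± 0.18 (limma adjusted p = 0.0503). That difference passed on edgeR (adjusted p = 0.0250), DESeq2 (0.00391), RLE scaling (0.0155) and the 4 libraries alone (0.0482). It was -0.82 without floxed TAC 1 (adjusted p = 0.00351) and -0.18 without floxed TAC 2 (0.361). The insulin receptor substrates did not pass, Irs1 at 36.7, 46.8, 35.1 and 40.1 CPM and Irs2 at 10.4, 14.0, 9.93 and 9.50 CPM. Grb14, an adaptor that inhibits the insulin receptor, fell from 299 to 116 CPM in floxed hearts (-1.35 ± 0.13, limma adjusted p = 5.3e-05) and was at 309 and 217 CPM in cKO sham and cKO TAC. With TAC it was higher in cKO than in floxed hearts by 0.90 ± 0.13 (limma adjusted p = 0.00197). The adaptor Shc1 rose by 1.11 ± 0.16 and the phosphatase Ptpn1, which acts on insulin receptor, by 1.03 ± 0.14.

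Downstream, 2 of 24 genes of PI3K, Akt and mTOR signalling rose (0 without floxed sham 1 or floxed TAC 1) and 6 fell with TAC in floxed hearts. The 2 are a share of 8.33%, below the 27.9% of all genes, and the 6 are 25.0%, against 14.5%. In cKO hearts 0 passed by limma, edgeR or DESeq2, with 3 at an unadjusted p under 0.05. Those that fell included the transcription factor Foxo4 (-1.19 ± 0.14), the mTOR inhibitor Tsc2 (-0.71 ± 0.09) and the kinase Akt2 (-0.60 ± 0.11). The interaction was positive for 4 of the 24, and for 0 to 2 of them without any 1 of the floxed libraries, cKO sham 1 or cKO TAC 1. Of 7 genes of the growth hormone axis, which controls Igf1 in liver, 1 rose and 4 fell in floxed hearts. In cKO hearts 0 passed by limma and edgeR and 1 by DESeq2, with 3 at an unadjusted p under 0.05. Ghr, the growth hormone receptor, went from 204 to 111 CPM in floxed hearts (-0.87 ± 0.10, limma adjusted p = 0.000127) and was at 199 and 151 CPM in cKO sham and cKO TAC. Stat5a fell by 0.96 on the log2 scale, and Socs3, a feedback inhibitor of cytokine receptors, rose by 3.12 ± 0.30.

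Of 17 proteases of the binding proteins and inhibitors of such proteases, 10 were higher and 2 lower with TAC in floxed hearts, and 1 was higher in cKO hearts (3 without cKO sham 1, 4 without cKO TAC 1, 2 without cKO TAC 2). Pappa, which cuts IGFBP4, was at 0.504 ± 0.20 CPM in floxed sham and 3.63 ± 1.91 CPM in floxed TAC hearts, a rise of 1.56 ± 0.32 (limma adjusted p = 0.00354). At these low levels the pseudocount of 1 lowers the size of the change, which was 2.70 on edgeR and DESeq2. Pappa was at 0.457 and 0.766 CPM in cKO sham and cKO TAC. Only its floxed TAC mean was above the filter's 1 CPM, so it was tested through the group where it is high. Its adjusted p is thus no separate support for the rise. Stc2, an inhibitor of that protease, ran the other way in floxed hearts only, at 18.5 CPM in floxed sham and 6.97 in floxed TAC. It was at 12.2 CPM in cKO sham and 13.0 in cKO TAC. Its fall in floxed hearts was -1.30 ± 0.19 (limma adjusted p = 0.000571). Timp1, a metalloprotease inhibitor, went from 2.54 to 317 CPM in floxed hearts and from 2.79 to 39.5 CPM in cKO hearts, and passed in both. The membrane protease Mmp14 rose by 3.07 ± 0.35 in floxed hearts, and Adam9 by 1.30 ± 0.13.

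Of 9 further genes with an IGFBP domain or a carrier role, 6 rose in floxed TAC hearts (3 without floxed TAC 2), and 3 in cKO TAC hearts. Without cKO sham 1 the 3 became 0, as they did when the libraries with atrial transcripts were dropped, and 1 was left when either cKO sham 2 or cKO TAC 2 was dropped. Ctgf went from 50.1 to 1187 CPM in floxed hearts and from 130 to 256 CPM in cKO hearts, with an interaction of -3.58 ± 0.25 (limma adjusted p = 0.000314). Wisp1 rose by 4.44 ± 0.48 in floxed hearts. Igfbp2, a classical binding protein outside the 9, was at 0.060 CPM in floxed sham and 0 CPM in both cKO sham libraries, at or below the 0.137 to 0.291 CPM that 3 reads are worth. It was at 1.08 ± 0.11 CPM in floxed TAC and 2.03 ± 0.26 CPM in cKO TAC hearts, and passed with TAC in both genotypes. The floxed call was lost without floxed sham 1, floxed TAC 1 or floxed TAC 2, and the cKO call without cKO sham 1 or cKO sham 2. Both TAC means and no sham mean reached the filter's 1 CPM, so Igfbp2 was tested only through TAC libraries. These calls are thus no separate support for a rise.

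Among partners of the Igf2 gene and mRNA, 2 of 5 rose in floxed TAC hearts. In cKO hearts 0 passed by limma, edgeR or DESeq2, with 1 at an unadjusted p under 0.05. Igf2bp2, which binds the Igf2 mRNA, was at 3.15 CPM in floxed sham, 16.3 in floxed TAC, 3.54 in cKO sham and 5.32 in cKO TAC. Its rise in floxed hearts was 2.08 ± 0.25 (limma adjusted p = 0.000199), and cKO TAC hearts were lower, at -1.45 ± 0.25 (limma adjusted p = 0.00422), which held in all 16 alternatives. H19, the imprinted neighbour of Igf2 that is expressed from the maternal allele, was at 15.2, 61.0, 13.6 and 23.7 CPM in the same order, a rise of 1.93 ± 0.34 in floxed hearts (limma adjusted p = 0.00157), while Igf2 did not pass. Of 11 genes for sorting of mannose 6-phosphate tagged enzymes, the pathway of Igf2r, 5 rose and 1 fell in floxed hearts. These became 1 and 0 without floxed sham 1, and 3 and 0 without any 1 of the other floxed libraries. In cKO hearts 0 passed by limma, edgeR or DESeq2, with 2 at an unadjusted p under 0.05. The cation-dependent receptor M6pr went from 74.4 to 105 CPM in floxed hearts (0.49 ± 0.12, limma adjusted p = 0.00738), a call lost without floxed sham 1 or floxed TAC 1. Matrix partners of the binding proteins rose for 10 of 12 genes in floxed hearts and 2 in cKO hearts (1 without cKO sham 1, cKO sham 2 or those with atrial transcripts). Of their interactions 9 were negative, and 2 to 5 without any 1 of the floxed libraries or cKO sham 1. They include fibronectin, Fn1, at 104, 1515, 87.3 and 374 CPM in the 4 groups, and the integrin Itga5 at 88.0, 342, 91.5 and 119 CPM.

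**Figure D5:**
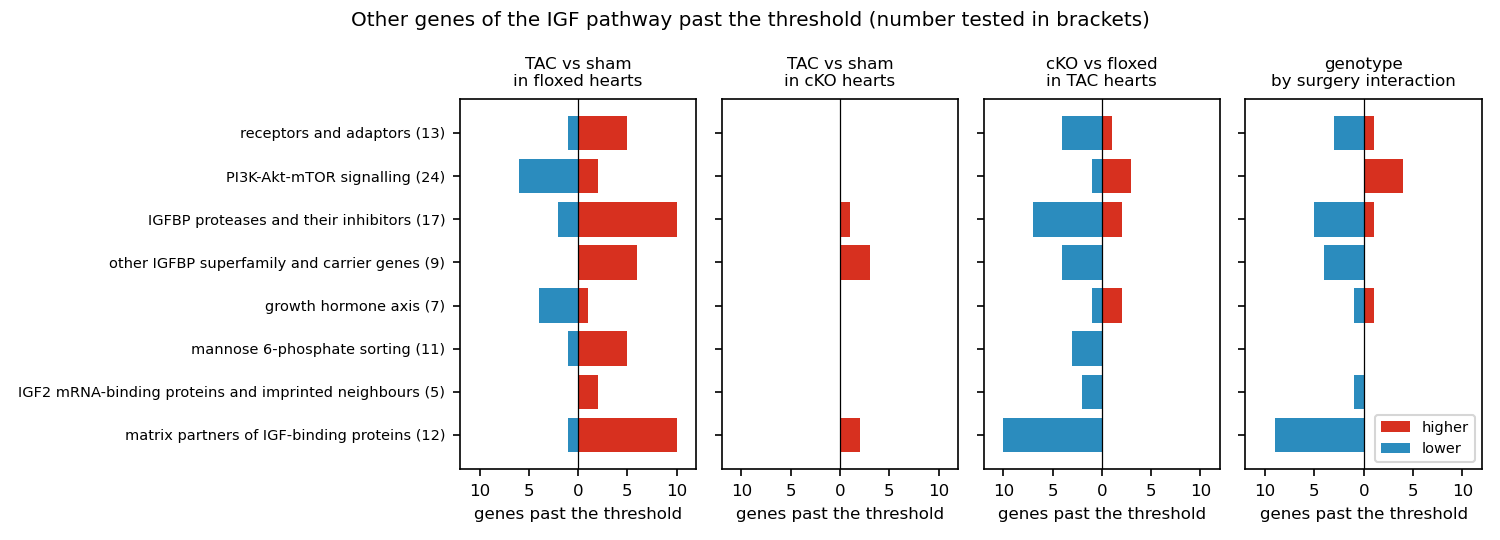
Number of other pathway genes past an adjusted p of 0.05 in each list and comparison, higher to the right of 0 and lower to the left, with the number tested in brackets. Proteases and matrix partners have 10 higher genes each in floxed TAC hearts, against 1 and 2 in cKO TAC hearts.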

How the data were processed

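Per the labels' protocols, RNA of left ventricles was isolated with Trizol and made into TruSeq stranded mRNA libraries for Illumina sequencing. The submitters' processing notes name Bowtie2 2.2.6, HTSeq, DESeq2 and mm10, with no roles; which annotation, filters and strand setting they counted with is not stated. The deposited values are CPM, in which the authors divided each gene's reads by the library total. Within 0.02 reads, 100% of values were whole reads, and 0.153% to 0.201% of the reads of a library lay in genes not listed. The plan named edgeR for counts and limma for normalized values; as the values were CPM, limma 3.58.1 (R 4.3.3, trended variance) was run on log2(CPM + 1) over all 8 libraries with 1 mean per group. The filter asked for 1 CPM or more in 2 libraries (319 genes removed), with Benjamini-Hochberg adjustment over 13120 genes and a threshold of 0.05. Counting error alone limits a count of 0 to 3 reads, 0.137 to 0.291 CPM, as PCR copies cannot be told from molecules.

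On the recovered reads edgeR 4.0.16 called 5559, 346, 6, 3070 and 1601 genes (TAC in floxed hearts, TAC in cKO hearts, genotype in sham, genotype in TAC, interaction). The alternatives were a pseudocount of 0.1, no filter, RLE scaling, edgeR, DESeq2 1.42.0, the 4 libraries of a comparison alone, a replicate block and each library left out; the fit without the 3 libraries with atrial transcripts, and the repeats of the pathway and marker counts, were chosen after seeing the data. Members and gene lists were chosen with earlier results of these data known. Named are the 9 members, up to 4 genes per pathway list with the smallest adjusted p, Igf1r, Insr, Irs1, Irs2, Pappa, Stc2, Igfbp2, Ghr, Igf2bp2 and H19, and from the 3 genes most correlated with each member; some genes the rule names, and 1 result of the motif search, are not reported here. Scripts were tested on simulated data. Sequences are from RefSeq (GRCm38.p6) and GENCODE; all 9 members matched. Marker sums are given for cardiomyocytes, macrophages, fibroblasts and endothelium.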

Additional observations from a re-analysis of the deposited data

Results flagged for a closer look

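The response to TAC differed between floxed and cKO hearts, by the interaction test of limma, for 2 members and, among the 10 other genes always named, for 3. Over the 98 other pathway genes there were 30 such calls, 7.14% positive and 23.5% negative. Of all genes tested, 4.93% were positive and 9.18% negative. A negative value means a smaller rise, or a larger fall, without Lin28a in heart muscle, on the log2(CPM + 1) scale. For Igfbp3 it was -2.12 (adjusted p = 0.00583), the only one of the 5 whose responses had opposite signs and both passed. That interaction was kept in all 15 alternatives, but the fall of Igfbp3 in cKO hearts was kept in only 7 of 16. For Igf1 it was -0.98 (adjusted p = 0.0498), kept in 3 of 15 alternatives. For Igf2bp2 it was -1.59 (adjusted p = 0.0202), lost without floxed sham 1, floxed TAC 1, floxed TAC 2 or cKO sham 1 (adjusted p up to 0.0879). For Stc2 it was 1.37 (adjusted p = 0.0141), lost without floxed sham 1, floxed sham 2 or floxed TAC 1 (adjusted p up to 0.0656). For Ghr it was 0.48 (adjusted p = 0.0443), kept in 6 of 15 alternatives and lost without any 1 library other than cKO TAC 2.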

How the results depend on the processing

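Over the alternatives, the members kept direction and side of the threshold in 642 of 711 repeated values, lost a call in 45, gained one in 11 and changed sign in 13. TAC in cKO hearts, with 332 genes called, gave 691 on DESeq2, 45 with its 4 libraries alone and 62 without the 3 libraries with atrial transcripts, where 0 members passed in both of the last settings. Leaving out 1 library gave 73 to 614 genes and 0 to 3 members. DESeq2 called 52 genes in sham hearts, against 7. For the interaction 1 member passed with a pseudocount of 0.1, no filter, RLE scaling, edgeR or the replicate block, and 1 to 4 with 1 library left out. Of the other pathway genes, TAC in cKO hearts called 6, 1 with its 4 libraries alone and 3 without the libraries with atrial transcripts. With 1 library left out there were 42 to 59 for TAC in floxed hearts, 3 to 11 for TAC in cKO hearts, 0 to 1 for genotype in sham hearts, 22 to 42 for genotype in TAC hearts and 5 to 40 for the interaction. Other ranges with 1 library left out were 3618 to 5921 genes for TAC in floxed hearts, 1 to 16 for genotype in sham hearts, 1330 to 3624 genes and 1 to 4 members for genotype in TAC hearts, and 253 to 2918 genes for the interaction.

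Signs changed only in values that had not passed. With 1 library left out, TAC in floxed hearts ranged from -0.56 to 0.25 for Igfbp5 and from -0.0152 to 0.66 for Igfbp6, and TAC in cKO hearts from -0.39 to 0.0749 for Igf2r and from -0.13 to 0.32 for Igfbp6 (-0.14 without the libraries with atrial transcripts). Genotype in sham hearts ranged from -0.0371 to 0.25 for Igf1, -0.00168 to 0.12 for Igf2r and -0.0289 to 0.13 for Htra1, and in TAC hearts from -0.23 to 0.44 for Igfbp6. The interaction ranged from -0.32 to 0.0251 for Igf2, -0.019 to 0.78 for Igfbp5 and -0.56 to 0.11 for Igfbp6. The cause was not tested.

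Between groups, deviations of same-numbered libraries correlated at -0.105 to 0.0812. With 2 libraries per group, these values cannot show whether the replicate numbers mark a shared batch. The 3 libraries with atrial transcripts were all replicate 2. With the replicate block, TAC in floxed hearts called 5573 genes, Igfbp7 in cKO hearts passed (adjusted p = 0.0318), and the Igf1 interaction did not (0.0516). With 2 libraries per group, smaller differences than those called may not be detectable.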
